A study of Mus musculus with 16 samples.

Results

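The 51 genes described here encode developmental transcription factors outside the Hox clusters, chosen by mouse gene symbol as textbook targets of Polycomb and grouped in 8 families: 9 Pax, 5 Six2-related, 5 Gata, 7 Tbx, 8 LIM homeodomain, 5 Nkx and 5 Fox factors and 7 other homeobox factors (Vax, Barhl, Evx and Cdx). All 51 were found among the 53379 genes of the count tables. The choice used no measured value, but it was made with earlier results of these data known.

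Polycomb repressive complex 2 (PRC2) places methyl groups on lysine 27 of histone H3, and EED is the core subunit that binds the mark and activates the enzyme EZH2. Lineage factors of this kind set the identity of the kidney, the heart, the spinal cord and other organs, and in tissues where they are not used their CpG-rich promoters typically carry the Polycomb mark. Some of them serve normally in the forebrain, among them Pax6 in radial glia and astrocytes and Nkx2-2 in the oligodendrocyte lineage.

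RNA was measured in green cells sorted from the neocortex of mice at postnatal day 4 (P4), labelled CD1 and kept, per the methods, on a mixed background of C57BL/6 and CD1. All animals carried MADM7-GT/TG, Emx1-cre and XGFAP-lacZ. MADM (mosaic analysis with double markers) recombines the homologous chromosomes in sparse dividing cells, so that the colour of a cell reports its genotype. In control animals green cells were Eed+/+, and in mosaic animals with a floxed Eed allele green cells were Eed-/- amid tissue that was mostly Eed+/-. Green cells of both genotypes hold 2 paternal copies of chromosome 7, Cre came from the Emx1 locus of dorsal forebrain progenitors, and lacZ was driven by the human GFAP promoter. GFP+/lacZ+ cells were taken as astrocytes (5 Eed+/+ and 5 Eed-/- libraries) and GFP+/lacZ- cells as neurons (2 Eed+/+ and 3 Eed-/- libraries), with individual animals as replicates. A further library, whose labels name both cell types, entered no comparison.

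The 15 grouped libraries held 211736 to 3178529 reads in genes. Of these libraries, 10 had at least 1000000 uniquely aligned reads making up at least 60% of uniquely aligned and unaligned reads together. Reads aligned to several places were left out of that share. Outside these limits were Eed+/+ astrocyte replicate 3, Eed-/- astrocyte replicates 1, 3 and 4, and Eed+/+ neuron replicate 2. Eed itself was read at 67.7 and 75.7 reads per 1000000 gene reads (CPM) in the Eed+/+ neurons and at 16.7, 36.0 and 32.7 CPM in the Eed-/- neurons, and at 4.19 to 64.2 CPM in Eed+/+ against 0 to 14.1 CPM in Eed-/- astrocytes. Gene counts do not separate the floxed part of Eed from the rest, so this is a partial check of the genotype. The ranges of the markers did not set the sorted types apart. The 8 astrocyte markers summed to 5526 to 7389 CPM over the 5 neuron libraries, within the 2122 to 18744 CPM of the astrocyte libraries, although their medians were higher in Eed+/+ and Eed-/- astrocytes (11481 and 9136 CPM) than in Eed+/+ and Eed-/- neurons (6581 and 5658 CPM). The 8 neuron markers summed to 972 to 2628 CPM in neurons against 0 to 4266 CPM in astrocytes. "Neurons" below therefore means GFP+/lacZ- cells, as labelled. In such bulk samples fewer cells of a type and less RNA per cell cannot be told apart.

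The promoters of 4 members that were read in Eed-/- neurons and not, or with 1 read, in Eed+/+ neurons are shown because Polycomb is known to act at CpG-rich starts, and they differ in CG content. Each is the 250 bases before the RefSeq start (GRCm38.p6, minus strand, printed 5′ to 3′ in the direction of the gene) with every CG in capitals, a motif that reads the same on both strands. They are Nkx2-5 at chr17:26841566-26841815, Isl1 at chr13:116309689-116309938, Nkx6-2 at chr7:139582798-139583047 and Barhl2 at chr5:106458167-106458416, the members with most reads in Eed-/- neurons among those gained there (defined below) with a single listed start.
Nkx2-5: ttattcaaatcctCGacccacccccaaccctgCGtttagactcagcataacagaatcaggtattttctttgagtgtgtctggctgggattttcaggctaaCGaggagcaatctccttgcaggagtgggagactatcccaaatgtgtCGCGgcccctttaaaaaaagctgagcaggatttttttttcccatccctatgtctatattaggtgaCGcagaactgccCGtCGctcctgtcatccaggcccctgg
Isl1: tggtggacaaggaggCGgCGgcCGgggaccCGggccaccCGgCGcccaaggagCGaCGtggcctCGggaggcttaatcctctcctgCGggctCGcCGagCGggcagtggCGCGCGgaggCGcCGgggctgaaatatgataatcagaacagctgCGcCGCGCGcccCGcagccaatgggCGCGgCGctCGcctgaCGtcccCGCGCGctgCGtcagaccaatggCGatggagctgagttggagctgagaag
Nkx6-2: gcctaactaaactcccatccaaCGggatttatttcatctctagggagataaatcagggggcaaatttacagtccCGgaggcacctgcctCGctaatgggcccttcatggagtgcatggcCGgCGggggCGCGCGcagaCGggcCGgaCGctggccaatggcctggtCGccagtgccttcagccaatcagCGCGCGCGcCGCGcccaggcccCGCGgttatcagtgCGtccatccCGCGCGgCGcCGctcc
Barhl2: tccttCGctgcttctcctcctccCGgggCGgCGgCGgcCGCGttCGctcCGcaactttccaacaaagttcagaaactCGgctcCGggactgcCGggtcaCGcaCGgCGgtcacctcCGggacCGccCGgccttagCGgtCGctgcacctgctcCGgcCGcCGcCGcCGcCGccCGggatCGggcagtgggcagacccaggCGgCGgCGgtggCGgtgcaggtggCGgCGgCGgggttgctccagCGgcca

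These windows held 8 (Nkx2-5), 33 (Isl1), 26 (Nkx6-2) and 36 (Barhl2) CG pairs. The Nkx2-5 start used here is among several annotated ones and lies inside the longer gene model. RefSeq windows were at hand for 40 of the 51 members, with none for Pax3, Pax4, Gata4, Gata6, Tbx2, Tbx3, Tbx5, Tbx15, Lhx5, Foxc2 and Vax2. Over the 40, the 250 bases held a median of 13.5 CG pairs (4 to 36), against 6 over the 27025 genes with a window. CpG-rich windows, with over 50% G and C and a ratio of observed to expected CG above 0.6, numbered 19 of 40 members (47.5%) and 31.2% of all genes. Of the windows printed above, that of Nkx2-5 was not CpG-rich by this rule (49.2% G and C, ratio 0.53), while those of Isl1, Nkx6-2 and Barhl2 were. All 40 members and 91.7% of all genes held a CG. The first listed start of each gene was used, and 7 members have several: with the start richest in CG, 23 of 40 members (57.5%) and 33.1% of all genes were CpG-rich.

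Read levels were first sorted into classes. A member was called silent in a group when every library held under 3 reads, expressed when more than 50% of the libraries held at least 3, and sporadic in between. Most members were silent in control cells: 39 of 51 in Eed+/+ astrocytes and 39 of 51 in Eed+/+ neurons, with 9 sporadic and 3 expressed in each. The 3 expressed members were the same in both cell types, Pax6, Nkx2-2 and Six5. Eed-/- astrocytes had 26 silent, 22 sporadic and 3 expressed members, and Eed-/- neurons had 13 silent, 6 sporadic and 32 expressed members, 15 of them with at least 3 reads in every library. Pax7, Tbx20, Six6, Gata5, Lhx3, Evx2 and Cdx2 were silent in all 4 groups, Pax7 and Tbx20 without a read in any library.

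The number of members with at least 3 reads was 27, 28 and 30 in the 3 Eed-/- neuron libraries and 9 and 6 in the 2 Eed+/+ neuron libraries. The groups did not overlap. The Eed+/+ library with 9 members had 1786836 gene reads and that with 6 had 343640, against 1256686 to 2058192 in the Eed-/- libraries, and the part of depth in these numbers was not tested. In astrocytes the numbers were 7, 4, 2, 6 and 3 in Eed+/+, against 3, 9, 9, 1 and 12 in Eed-/- libraries, which overlapped. Summed over 49 members, without Pax6 and Nkx2-2, the level was 33.6 and 151 CPM in Eed+/+ neurons and 166 to 224 CPM in Eed-/- neurons, and 14.7 to 26.2 CPM in Eed+/+ and 50.8 to 404 CPM in Eed-/- astrocytes. Each of the 5 Eed-/- astrocyte libraries was above each Eed+/+ astrocyte library in this sum of 49. Single members carried it in some libraries. Of the 100 reads in Eed-/- replicate 1, 94 were of Isl2, and all 39 reads in replicate 4 were of Lhx4. How often sums over other genes part in this way was not counted. Over all 51 members the astrocyte groups overlapped, at 54.4 to 258 CPM in Eed+/+ and 169 to 1002 CPM in Eed-/-, and the neuron libraries lay at 313 and 352 CPM in Eed+/+ and 354 to 504 CPM in Eed-/-.

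**Figure D1:**
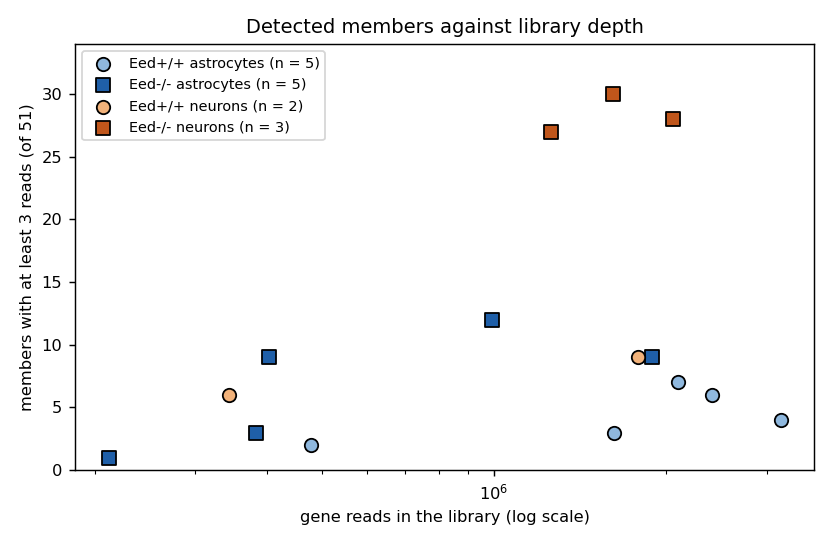
Number of members with at least 3 reads against the gene reads of the library on a log scale, 1 point per library. The 3 Eed-/- neuron libraries lie at 27 to 30 members, while libraries of like depth in the other groups lie at 12 or fewer.

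A member was called gained when it had under 3 reads in every Eed+/+ library and at least 3 in 2 or more Eed-/- libraries, and lost by the mirror rule. In neurons 23 of the 51 members were gained and 0 were lost, where 4.42% of the 23689 genes with a read were gained and 0.253% lost. Among the 34 members with a read that were silent in Eed+/+ neurons these 23 made up 67.6%, against 11.6% of all genes silent there. The rule is a description and carries no test, and with 2 Eed+/+ libraries, 1 of them of 343640 gene reads, it is easier to meet than its mirror. The count was 26 without that shallow library (5.04% of all genes) and 26 without the deeper one, Eed+/+ replicate 1, where the share of all genes rose to 24.2%. With an Eed-/- library left out, so that both others had to hold 3 reads, it was 16 without replicate 1, 15 without replicate 2 and 14 without replicate 3 (2.78%, 2.27% and 2.62% of all genes).

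**Figure D2:**
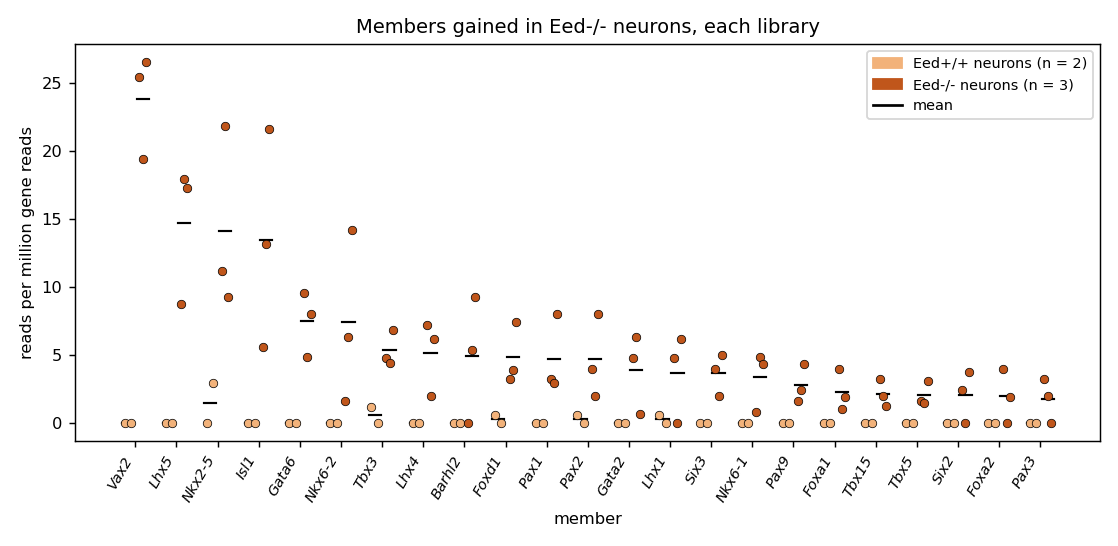
CPM of the 23 members gained in Eed-/- neurons in each of the 2 Eed+/+ and 3 Eed-/- libraries, with group means as bars. Vax2 had the highest mean, and the highest Eed+/+ value of any of the 23 was that of Nkx2-5, from 1 read.

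Of the 46 members with a read in neurons, 18 had every Eed-/- library above every Eed+/+ library in CPM and 0 had the reverse, where 11.1% and 5.37% of all genes did. They were Foxa1, Foxd1, Gata2, Gata6, Isl1, Lhx4, Lhx5, Nkx2-5, Nkx6-1, Nkx6-2, Pax1, Pax2, Pax9, Six3, Tbx3, Tbx5, Tbx15 and Vax2. For these counts and shares CPM was scaled by edgeR's TMM factors. In edgeR's quasi-likelihood test over 16342 genes, none of the 35 members tested passed an adjusted p of 0.05, nor did any other gene (0%). An unadjusted p under 0.05 was reached by 9 members, all higher in Eed-/- neurons (2.06% of all genes were higher at that level and 5.09% lower): Vax2, Lhx5, Isl1, Gata6, Nkx6-2, Nkx2-5, Lhx4, Pax1 and Barhl2. Each of the 9 had 0 or 1 read over both Eed+/+ libraries and passed the filter on low counts only through its Eed-/- reads, so their shared direction was fixed by the filter. DESeq2 called 1 member, Vax2, with an adjusted p of 0.0364, and 0.337% of all genes. Since many of the 35 passed in this way, no median over them is given.

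Other cell-type markers moved with this comparison. Neurod6, a gene of pyramidal neurons, was at 16.8 and 0 CPM in Eed+/+ and at 71.6, 136 and 148 CPM in Eed-/- neurons, and the neuron list summed to 972 and 1861 against 1616 to 2628 CPM, which overlapped. All 8 neuron markers were read in each of the groups. The 10 mural and meningeal markers summed to 112 and 172 CPM in Eed+/+ and to 38.9 to 80.4 CPM in Eed-/- neurons, with Kcnj8 and Abcc9 at 0 in the former and Kcnj8, Lum and Slc6a13 at 0 in the latter. The 8 endothelial markers also did not overlap, at 250.2 and 265 CPM in Eed+/+ against 103 to 220 CPM in Eed-/- neurons, with Cldn5, Cdh5, Tek and Ly6c1 at 0 in the former and Tek at 0 in the latter. The 8 interneuron and ventral forebrain markers overlapped, at 666 and 885 against 695 to 861 CPM. The 8 oligodendrocyte lineage markers also overlapped, at 1400 and 3498 against 2707 to 4116 CPM. The part of cell makeup in the gained members was not tested.

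The LIM homeodomain factors, which specify motor neurons, interneurons and other nerve cell types, had 4 of 8 members gained in neurons. Lhx5 (chr5:120431699-120441223), a forebrain and spinal cord patterning factor, had 0 reads in both Eed+/+ neuron libraries and 11, 37 and 28 reads in the Eed-/- libraries. It had 0 reads in all 10 astrocyte libraries, so its reads came from Eed-/- neurons only.

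Isl1, which specifies motor neurons and cardiac progenitors, had 0 and 0 reads in Eed+/+, against 7, 27 and 35 reads in Eed-/- neurons, and 0 in every astrocyte library. Against a floor of 3 reads over the 2130476 gene reads of the Eed+/+ neurons (1.41 CPM, counting error only), the pooled level was at least 10.9-fold higher for Lhx5 and at least 9.93-fold higher for Isl1. The floor rests on Eed+/+ replicate 1, and without it these bounds fell to 1.76 and 1.60, against a floor of 8.73 CPM. The unadjusted p was 0.0024 for Lhx5 and 0.0036 for Isl1, with adjusted p of 0.359 and 0.405 in edgeR. The promoter of Isl1 printed above was among the richest in CG.

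Lhx4, a pituitary and motor neuron factor, had 0 and 0 against 9, 4 and 10 reads, and Lhx1, a factor of kidney and cerebellar neurons, 1 and 0 against 6, 0 and 10 reads. Lhx8 had 12 reads in 1 Eed-/- neuron library and none elsewhere. Lhx9 was the only LIM member sporadic in Eed+/+ neurons and had reads in all 5 neuron libraries, with 4 and 2 in Eed+/+ and 7, 30 and 7 in Eed-/-. Isl2 and Lhx3 were silent in Eed-/- neurons. The members of the family summed to 3.36 and 5.82 CPM in Eed+/+ and to 41.4 to 56.2 CPM in Eed-/- neurons.

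Among the other homeobox factors, 2 of 7 were gained. Vax2 (chr6:83711264-83738313, GRCm38), which patterns the ventral eye, had 0 and 0 reads in Eed+/+, against 32, 40 and 43 reads in Eed-/- neurons. Their total of 115 was the highest of any gained member. All 3 Eed-/- libraries were far above both Eed+/+ libraries, and the pooled level was at least 16.6-fold higher (at least 2.67-fold without Eed+/+ replicate 1). The fitted log2 difference was 8.07 ± 1.91 (SE), with an unadjusted p of 0.00053 and an adjusted p of 0.267 in edgeR, where the size of a difference from a group at 0 depends on the prior count. In astrocytes Vax2 had 0, 0, 0, 11 and 0 reads in Eed+/+, against 0, 7, 0, 0 and 4 in Eed-/- libraries, so it was sporadic in both.

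Barhl2, a factor of amacrine and spinal neurons, had 0 and 0 against 0, 11 and 15 reads in neurons, with replicate 1 of Eed-/- at 0 like the controls. Barhl1 reached 5 reads in 1 Eed-/- neuron library and Evx1 3 reads in 1. Vax1, Evx2 and Cdx2 had at most 2 reads in any neuron library and were silent there. The family had no read in either Eed+/+ neuron library and summed to 25.5 to 39.5 CPM in the Eed-/- libraries.

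The Nkx factors had 3 of 5 members gained in neurons. Nkx2-5, a cardiac factor, had 0 and 1 reads in Eed+/+, against 14, 45 and 15 reads in Eed-/- neurons, and 1 read over all astrocyte libraries. The single control read gives a pooled ratio of 32.0 with a 95% counting interval of 5.56 to 1279. The ratio is thus known only to be well above 1 in counting error, and edgeR gave an adjusted p of 0.584.

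Nkx6-2, of the ventral spinal cord and oligodendrocytes, had 0 and 0 reads in Eed+/+, against 2, 13 and 23 reads in Eed-/- neurons, at least 5.47-fold higher when pooled. That bound was 3.21 without Eed-/- replicate 3, and without Eed+/+ replicate 1 the pooled 7.70 CPM was under the floor, so that no bound remained. Nkx6-1, of ventral spinal progenitors and pancreatic beta cells, had 0 and 0 against 1, 10 and 7 reads. Nkx2-1, which marks the ventral forebrain, had 3 and 0 against 0, 4 and 2 reads and was not gained. Its values overlapped between the genotypes.

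Nkx2-2, expressed in both control groups, had 133 and 38 reads in Eed+/+, against 92, 78 and 65 reads in Eed-/- neurons. In CPM the pooled ratio of Eed-/- to Eed+/+ was 0.593 (counting interval 0.485 to 0.727), a size the spread between libraries did not separate from no difference (edgeR adjusted p of 0.76). In astrocytes it had 67, 103, 18, 44 and 28 reads in Eed+/+, against 0, 74, 7, 1 and 78 in Eed-/- libraries.

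The Pax factors had 4 of 9 members gained in neurons, each at low counts. Pax1, a factor of the sclerotome and thymus, had 0 and 0 reads in Eed+/+, against 4, 6 and 13 in Eed-/- neurons. Pax2, of kidney and midbrain, had 1 and 0 against 5, 4 and 13 reads. Pax9, of teeth and the pharyngeal pouches, had 0 and 0 against 2, 5 and 7 reads. For all 3 the Eed-/- libraries were above the Eed+/+ libraries in CPM.

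Pax3, of the neural crest and dorsal neural tube, had 0 and 0 against 4, 4 and 0 reads. Pax5, of B cells and the midbrain, had 0 and 5 against 11, 6 and 10 reads and Pax8, of thyroid and kidney, 1 and 4 against 1, 3 and 5 reads, so both were expressed in Eed-/- neurons without being gained. Pax4 had 16 reads in 1 Eed+/+ astrocyte library and none elsewhere.

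Pax6 was the most read member. It had 367 and 31 reads in Eed+/+, against 232, 309 and 389 reads in Eed-/- neurons, a pooled ratio of 1.01 (counting interval 0.896 to 1.14). In astrocytes it had 419, 376, 1, 464 and 92 reads in Eed+/+, against 284, 150, 0, 0 and 107 reads in Eed-/- libraries, with both groups ranging from 0 or 1 read to 284 or more. The fitted log2 difference was 0.37 ± 0.67 in neurons and 0.09 ± 1.34 in astrocytes, with adjusted p of 0.891 and 0.995 in edgeR, and the error in astrocytes leaves large differences in either direction undetected.

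The factors Six2 to Six6 had 2 of 5 members gained in neurons. Six3, which specifies the anterior forebrain and eye, had 0 and 0 reads in Eed+/+, against 5, 4 and 8 reads in Eed-/- neurons. Six2, of nephron progenitors, had 0 and 0 against 3, 0 and 6 reads. Six4 went the other way in counts, with 12 and 0 against 0, 1 and 5 reads, and overlapped.

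Six5 was expressed in both control groups, with 16, 57, 0, 14 and 0 reads in Eed+/+ astrocytes and 8 and 5 in Eed+/+ neurons. It had 0, 2, 0, 0 and 6 reads in Eed-/- astrocytes and 3, 0 and 14 in Eed-/- neurons. Its log2 difference in edgeR was -2.11 ± 2.01 in astrocytes and -1.27 ± 1.48 in neurons, neither past the test.

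The Gata factors had 2 of 5 gained. Gata6, of endoderm and heart, had 0 and 0 reads in Eed+/+, against 12, 10 and 13 reads in Eed-/- neurons, at least 5.04-fold higher when pooled. Without Eed+/+ replicate 1 its pooled 7.09 CPM was under the floor, so that no bound remained. Gata2, of blood and of midbrain and spinal GABAergic neurons, had 0 and 0 against 6, 13 and 1 reads.

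Gata3, its relative in T cells and the inner ear, had 0 and 34 reads in Eed+/+, against 31, 25 and 2 reads in Eed-/- neurons. Its 34 reads came from the shallow library and made up all of the 98.9 CPM of the family there, against 2.24 CPM in the other Eed+/+ library and 9.88 to 39.0 CPM in Eed-/- libraries. Gata4 had at most 1 read and Gata5 none in Eed-/- neurons.

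The Tbx factors had 3 of 7 gained in neurons and 1 in astrocytes. Tbx3, of limb and heart, had 2 and 0 reads in Eed+/+, against 6, 9 and 11 reads in Eed-/- neurons. Tbx5, of forelimb and heart, had 0 and 0 against 2, 3 and 5 reads, and Tbx15, of skin and skeleton, 0 and 0 against 4, 4 and 2 reads. Tbx18 had 16 and 0 against 6, 0 and 11 reads and overlapped, and Tbx2, Tbx4 and Tbx20 had at most 1 read in each neuron library.

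The Fox factors had 3 of 5 gained in neurons. Foxd1, of the kidney stroma and retina, had 1 and 0 reads in Eed+/+, against 4, 8 and 12 reads in Eed-/- neurons. The pioneer factors of endoderm and floor plate were lower: Foxa1 had 0 and 0 against 5, 2 and 3 reads, and Foxa2 had 0 and 0 against 5, 0 and 3 reads. Foxc1, of meninges and vessels, had 6 and 1 against 10, 1 and 16 reads and overlapped, and Foxc2 reached 4 reads in 1 Eed-/- neuron library.

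Per length of exon, Vax2 in Eed-/- neurons (19.2 ± 3.09 reads per kilobase of exon and 1000000 gene reads, SD, n = 3) ranked with 2 of the 3 members expressed in both Eed+/+ groups, Nkx2-2 (17.5 ± 6.88) and Pax6 (16.4 ± 3.89). The 3 differed by less than their spread. Nkx2-5 (8.20 ± 3.95) and Lhx5 (5.46 ± 1.91) came next and overlapped each other, followed by Nkx6-2 (3.87 ± 3.34) and Isl1 (3.39 ± 2.03). The length was that of all annotated exons of a gene together, 11694 bases for Pax6 and 1242 for Vax2. Without regard to length, pooled Eed-/- neurons had 188 CPM of Pax6, 47.6 CPM of Nkx2-2 and 23.3 CPM of Vax2. The ranking thus depends on the length used.

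In astrocytes 2 of the 51 members were gained and 0 lost, where 0.503% of the 24464 genes with a read were gained and 5.71% lost. Among the 26 members with a read that were silent in Eed+/+ astrocytes they made up 7.69%, against 1.8% of all genes silent there. Tbx4, a hindlimb and lung factor, had 0 reads in all 5 Eed+/+ libraries and 0, 4, 16, 0 and 13 reads in the Eed-/- libraries. Foxd1 had 0 in all 5 against 0, 0, 18, 0 and 3 reads, and was gained in both cell types. Without Eed-/- replicate 3, which held 18 of its 21 reads, or without replicate 5 it was not gained in astrocytes. In TMM-scaled CPM no member had every Eed-/- library on the same side of every Eed+/+ library, as did 0.0164% of all genes above and 0.842% below.

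What differed between Eed-/- astrocyte libraries was which member was read. Of the 25 members with at least 3 reads in any Eed-/- astrocyte library, 19 had them in 1 library only. Isl2 had all its 94 reads in replicate 1, Lhx4 39 of 41 in replicate 4, and Foxc2 (40), Tbx15 (30) and Six2 (21) had theirs in replicate 3. These 3 replicates are outside the alignment limits, at 211736 to 403472 gene reads. Within the limits, Nkx6-1 had 14 and Tbx5 14 reads in replicate 2, and Gata6 had 12 and Tbx2 8 in replicate 5. Isl2, Foxc2 and Tbx2 are named here after their values were seen, as are the other members described above that were neither gained nor expressed in Eed+/+ cells.

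**Figure D3:**
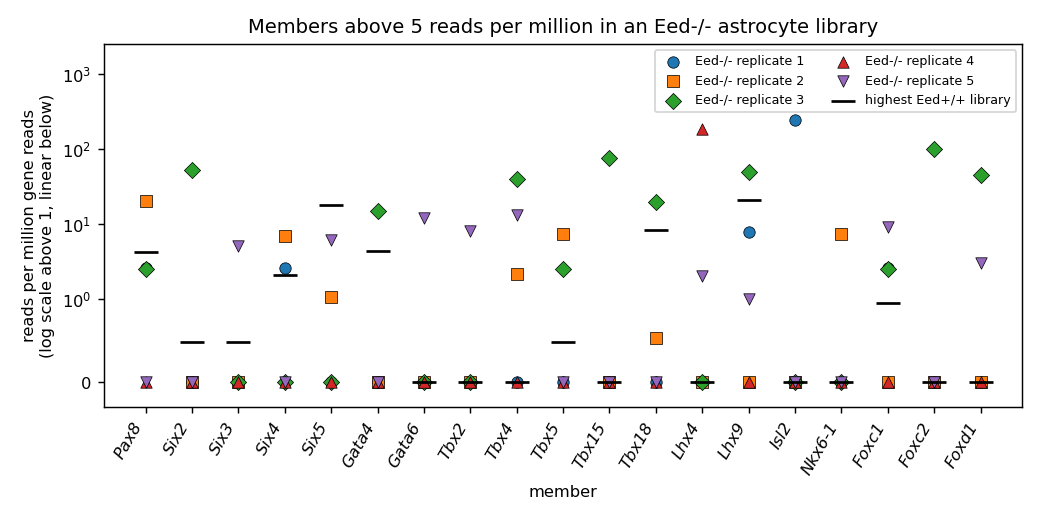
CPM of the members above 5 CPM in an Eed-/- astrocyte library (Pax6 and Nkx2-2 left out), 1 symbol per Eed-/- replicate, with the highest of the 5 Eed+/+ libraries as a bar. The axis is logarithmic above 1 and linear below. For most members 1 library lies above the bar and the others at or near 0.

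Markers of other cells varied with these libraries. The 10 mural and meningeal markers summed to 96.6 to 1658 CPM in Eed-/- and 25.3 to 149 CPM in Eed+/+ astrocytes. Kcnj8, Abcc9 and Acta2 were at 0 in the Eed-/- group. The 1658 CPM was that of Eed-/- replicate 3, the library that held the reads of Foxc2, Tbx15 and Six2. The 8 microglial markers summed to 10364 CPM in Eed-/- replicate 1, and the 5 erythroid markers to 11925 CPM in replicate 4, against highest values of 266 and 5.24 CPM in Eed+/+ astrocytes. The oligodendrocyte lineage, endothelial and interneuron lists overlapped between the genotypes, with lower medians in Eed-/- astrocytes. These medians were 850, 150 and 74.1 CPM, against 2656, 399 and 719 CPM in Eed+/+ astrocytes. The part of these other cells in the reads of the members was not tested.

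EdgeR called none of the 21 members tested in astrocytes, where 10 of 15895 genes were called (0.0629%), and DESeq2 called none and 0.101% of all genes. An unadjusted p under 0.05 was reached by 9 members, all higher in Eed-/- (4.98% of all genes were higher at that level and 6.66% lower): Isl2, Lhx4, Foxc2, Tbx15, Tbx4, Foxd1, Gata6, Six2 and Nkx6-1. Each of the 9 had 0 or 1 read over all Eed+/+ astrocytes and passed the filter on low counts only through its Eed-/- reads, so their shared direction was fixed by the filter. At an adjusted p of 0.2, 6 passed, all higher (2.37% of all genes): Foxc2, Foxd1, Isl2, Lhx4, Tbx15 and Tbx4. With a fit over all 15 libraries the same 6 passed 0.05, where 1.84% of all genes were called higher, while without Eed-/- replicate 5, 2 passed (Isl2 and Lhx4) and 0.728% of all genes were called higher. Apart from Tbx4, 1 library held most of the reads behind each of these calls.

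Between cell types no member was called. For Eed+/+ astrocytes against neurons edgeR called 0 of 34 members and 2 of 16322 genes (0.0123%), and 2 members had an unadjusted p under 0.05, both lower in astrocytes (Gata3 and Pax5, against 2.66% of all genes lower and 0.496% higher). For Eed-/- astrocytes against neurons it called 0 members and 7 genes (0.0429%), with 3 members higher (3.31% of all genes) and 8 lower (7.49%) in astrocytes at an unadjusted p under 0.05. The interaction, which asks whether the genotype difference itself differs between the cell types, called 0 members and 7 genes (0.0429%), and 1 member, Isl2, was at an unadjusted p under 0.05 (1.86% of all genes in its direction and 3.51% in the other). DESeq2 called 0 members in each of these 3 comparisons, where it called 0.0613%, 0.0735% and 0.0306% of all genes. Of the 23 members gained in neurons the interaction was tested for 19, and for 9 of these its standard error was above 100 on the log2 scale, so that the test could not bear on them. Whether the 23 members gained in neurons and the 2 in astrocytes reflect a difference between the cell types is thus not shown either way.

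Other factors of the same kind were counted in the same way. Of 74 further developmental factors, 65 had a read in neurons, and 17 of these (26.2%) were gained in Eed-/- neurons and 0 lost, where 4.42% of all genes were gained and 0.253% lost. Among them En1, of the midbrain, had 0 and 0 reads in Eed+/+, against 26, 37 and 33 in Eed-/- neurons, Olig3, of the dorsal neural tube, 0 and 0 against 13, 43 and 14, and Uncx, of somites and spinal cord, 0 and 0 against 17, 35 and 14. These were picked for their counts after the values were seen. Of the 44 remaining genes of the same 8 families, 33 had a read, and 5 of these (15.2%) were gained and 0 lost. EdgeR called 0 of the 46 and 19 genes tested in these lists, with 11 and 1 higher and 0 and 0 lower at an unadjusted p under 0.05 (2.06% of all genes higher, 5.09% lower), and DESeq2 called 0 in both. A gene near 0 in Eed+/+ libraries, as the gained ones are, passes the filter on low counts only through its Eed-/- reads, so the direction of these counts is no result.

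In astrocytes, where 0.503% of all genes were gained and 5.71% lost, 49 of the 74 factors had a read, with 0 gained and 1 lost, Gsx2, with 234, 2, 0, 4 and 0 reads in Eed+/+, against 0 in every Eed-/- library. Of the 44 family genes 27 had a read, with 2 gained and 2 lost (Nkx6-3 and Foxs1). EdgeR called none of the 26 and 13 tested, with 2 and 5 higher and 3 and 3 lower at an unadjusted p under 0.05 (4.98% of all genes higher, 6.66% lower), and DESeq2 called 0 in both.

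The promoters of the 16 gained members with a window held a median of 17.5 CG pairs (9 of 16 CpG-rich), those of the 10 with a window that stayed silent in Eed-/- neurons 13.5 (4 of 10), and the other 14 held 11.5 (6 of 14). With the start richest in CG these were 11 of 16, 5 of 10 and 7 of 14. The ranges, 5 to 36, 6 to 22 and 4 to 29, overlapped, so the CG content of these windows did not part the gained members from the silent ones.

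Counting ignored strand, and 16 of the 51 members share exon bases with an antisense gene, 7 of them gained in neurons (at most 12.9% of exon bases, Nkx6-2 with Inpp5a). Reads there cannot be told apart by strand, and the counting program sets reads over both genes aside.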

How the data were processed

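RNA from GFP+/lacZ+ and GFP+/lacZ- cells of single P4 animals was sequenced by the authors with a full-length method (Smart-Seq v2, unstranded). The deposited values are raw counts of reads per gene, made by the authors with STAR on GRCm38 (mm10, per the submitters' processing notes), neither normalized nor pooled, and no source used here names the annotation release. The unstranded counts of 53379 genes were used, and the 4 lines of totals at the head of each table (which name no gene) were left out of library sizes. Reads outside genes made up 8.55% to 71.6% of the uniquely aligned reads, and 0 columns lacked a sample. Symbols came from GENCODE mouse release 21, which matched 53274 identifiers, and promoters from RefSeq.

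Groups were taken from the labels. The authors left out some samples after principal component and correlation checks without naming them, whereas all 15 grouped libraries were used here. Genotypes were compared within each cell type, and cell types and the interaction over all 15 grouped libraries, with edgeR 4.0.16 (quasi-likelihood, robust, TMM, mean count above 1, two-sided, Benjamini-Hochberg over all genes tested, adjusted p of 0.05) in R 4.3.3. DESeq2 1.42.0, limma 3.58.1 with voom, other filters and normalizations and left-out libraries were alternatives. CPM is reads per 1000000 gene reads. At these depths 3 reads correspond to 0.944 to 14.2 CPM per library, and intervals (95%) and the floor of 3 reads cover counting error only, since reads are not independent molecules. The edgeR script was tested on simulated data for 200 changed genes: in the neuron comparison (15391 genes) it recovered 62.4% of changes of 4 on the log2 scale and 7.45% of changes of 2, and in the astrocyte comparison (14480 genes) 0% of either at the spread of these libraries.

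The members and all lists were chosen with earlier results of these data known. Named with reads per library were members gained or lost, called in any comparison, or expressed in an Eed+/+ group, while others were named after their values were seen. Of the genes of the comparison lists gained in astrocytes, the count alone is reported here.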

Additional observations from a re-analysis of the deposited data

Results flagged for a closer look

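Among the 40 sets of 5 astrocyte libraries examined (family sums, and named members with at least 3 reads in a library), 21 had 1 library far above the other 4 by Dixon's ratio (above 0.71), which chance gives in about 1 of 20 sets. A member read in a single library meets this by construction. None stood apart on the low side. In Eed+/+ astrocytes there were 6. Replicate 1 had 6.20 CPM summed over Gata factors and 1.91 CPM of Foxa2, replicate 3 had 8.37 CPM over Tbx factors, and replicate 5 had 21.6 CPM over LIM homeodomain factors. Replicate 4 had 4.57 CPM over the other homeobox factors, all of it Vax2 (4.57 CPM).

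In Eed-/- astrocytes there were 15. Replicate 1 had 744 CPM summed over Pax factors, of which Pax6 made up 741 CPM. Replicate 3 had 52.0 CPM over Six2 to Six6 (Six2 alone 52.0 CPM), 136 CPM over Tbx factors, 146 CPM over Fox factors, 74.4 CPM of Tbx15 and 44.6 CPM of Foxd1. Replicate 4 had 184 CPM of Lhx4. Replicate 2 had 7.41 CPM of Nkx6-1 and 1.59 CPM of Barhl2, and replicate 5 had 4.02 CPM of Pax1, 5.03 CPM of Six3, 6.04 CPM of Six5 and 12.1 CPM of Gata6.

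The library without a group, outside every comparison, had 433 CPM of Pax6 (96 reads) and 27.1 CPM of Foxc1 (6 reads). The highest Eed+/+ library had 205 and 3.36 CPM of these genes, the highest Eed-/- astrocyte library 741 and 9.05 CPM, and the highest Eed-/- neuron library 240.3 and 9.88 CPM. No other member reached 3 reads there, in 221456 gene reads.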

How the results depend on the processing

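In astrocytes, where edgeR called 0 members, 6 were called at an adjusted p of 0.2, 4 with RLE size factors, 6 with 1 fit over 15 libraries and 0 to 2 with a library left out. Calls over all genes, 10 at first, were then 447, 300 and 328, and 118 without Eed-/- replicate 5, which gave the 2. In neurons, also at 0, DESeq2 called 1 (with or without a filter, the latter and DESeq2 within the alignment limits added after seeing the data), edgeR without a filter called 1, and leaving out a library gave 0 to 2. Without Eed+/+ neuron replicate 1 these 2 were Vax2 (higher) and Gata3 (lower), the 1 remaining Eed+/+ library was assumed to vary like the others, and 2898 of 16184 genes were called. DESeq2 called 55 genes with and 56 without a filter, and edgeR without a filter 127. Calls stayed at 0 in the other alternatives and, for the cell type and interaction comparisons, in every alternative run. The 23 members gained in neurons became 9 at 10 reads, which took in Foxc1 and Pax5, and 14 to 26 with a library left out, while the share of all genes went from 4.42% to 2.53% at 10 reads and 2.27% to 24.2% with a library left out. The 2 gained in astrocytes became 1 at 10 reads, 5 at 2 CPM, 1 within the alignment limits and 1 to 3 with a library left out (0.347%, 1.39%, 0.209% and 0.235% to 0.818% of all genes, from 0.503%). The 0 lost in astrocytes became 1 at 1 read (Pax5), at 10 reads (Six5), within the limits (Lhx9) and without Eed-/- replicate 5 (Six5). The cause was not tested.

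EdgeR as first run called no named member, so no called value could reverse. The log2 difference of Pax6 in astrocytes was -3.13 with limma-voom, -0.63 within the limits (-0.56 with DESeq2), -0.90 with the replicate block, -0.35 with the library run as a covariate and -1.29 to 0.53 with a library left out. That of Nkx2-2 was -0.77 with limma-voom, -1.08 with the replicate block and -0.71 to 0.38 with a library left out. Pax6 in neurons was -0.085 within the limits (-0.052 with DESeq2) and -0.085 to 1.18 with a library left out. Same-numbered libraries of the 2 genotypes did not deviate together in astrocytes (correlations of -0.0048 to 0.14). In neurons (0.12 and -0.30) the 2 Eed+/+ libraries mirror each other about their mean, so these values cannot bear on pairing. For astrocytes against neurons the correlations were 0.034, 0.13 and -0.0063 in Eed-/- cells. Whether those libraries share an animal was not settled, and the main fits took them as separate. With the replicate block 0 members were called in each of the 5 comparisons. The lower bounds on folds over Eed+/+ neurons and the choice of promoter start, examined after seeing the data, stand beside their values above. Depth limits all of this: 3 reads were 8.73 CPM in the shallow Eed+/+ neuron library.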
